A study of Mus musculus with 2 samples.

Results

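Antioxidant, thiol and glutathione genes were followed in CD8+ regulatory T cells, a suppressive kind of CD8+ T cell. The genes were taken by name. They are the families whose symbols start with Gpx, Prdx, Txn, Glrx, Gsta, Gstm, Gstp, Gstt, Gsto or Mgst, together with 13 single genes (Sod1, Sod2, Cat, Gclc, Gclm, Gss, Gsr, Srxn1, Nqo1, Nfe2l2, Keap1, Mt1 and Mt2). This rule found 75 of the 22609 genes listed. Of these, 56 reached at least 1 CPM (counts scaled to library size) in at least 1 library and were compared, 16 had no count in either library, and Nqo1, Gsta3 and Gstm7 were counted below that level.

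Spleens of naive mice aged 3 months gave the cells, which were isolated by FACS. The WT genotype had 1 library, and Tgfbr2-/-Eomes-/- mice, called DKO here, had 1, their labels naming the loss of a TGF-beta receptor subunit and of the T-box factor Eomesodermin. The number of mice per library, the sort markers, the part of each gene removed and the cells that lost it are not stated in the labels. Gene counts totalled 22307065 for WT and 19661212 for DKO. A single library per genotype allows no replicate check or p-value. Intervals are exact (Clopper-Pearson, 95%) and hold counting error alone. The intervals compare the 2 libraries, not the genotypes. Eomes, at 469 CPM in WT and 180 CPM in DKO, was 2.61-fold lower in the library labelled as lacking it, and Tgfbr2, at 357 and 244 CPM, was 1.46-fold lower. Neither was near 0. The CD8 chain gene Cd8a was at 998 and 978 CPM, so both libraries held RNA of a CD8 chain. This gene does not tell the regulatory kind from other CD8+ T cells.

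Cells remove superoxide with superoxide dismutases, which make hydrogen peroxide, and then remove the peroxide with catalase, glutathione peroxidases and peroxiredoxins. The peroxidases draw electrons from the small thiol glutathione or from the protein thioredoxin, which are recycled by glutathione reductase and thioredoxin reductases with NADPH. Many of these genes are induced by the transcription factor NRF2 (encoded by Nfe2l2), which KEAP1 holds back until electrophiles or oxidants modify it. In T cells, peroxide made after activation also serves as a signal, and glutathione is needed for growth.

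Most of the compared genes differed little between the libraries, and those past 2-fold were all higher in the DKO library. In bulk samples, fewer cells of a type and less RNA per cell cannot be told apart. Of the 56 genes, 7 were called higher (12.5%), meaning a ratio of 2 or more and an interval clear of 1, namely Gstt1, Mt1, Mgst1, Srxn1, Glrx, Txnrd3 and Prdx4. Over all 11735 genes compared the share was 11.6%, so the share among these genes was near the background. Of the 7, Gstt1 (0.137 CPM in WT) and Mt1 (0.912 CPM in WT) met the minimum of 1 CPM through the DKO library alone. They entered the comparison only through the library in which they were high. None of the 56 was at least 2-fold lower, against 3.60% of all genes. The median log2 ratio was 0.10, against 0.00 for all genes, with 36 ratios above 0 and 20 below. The sum of the 75 genes was 5245 CPM for WT and 5699 CPM for DKO.

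The 7 higher genes were of low or middle abundance, as plotted against abundance. Bins were set by the higher CPM of the 2 libraries. From 1 to 5 CPM, 1 of 10 genes was higher (Gstt1), where 35.0% of all genes in that range were. From 5 to 20 CPM, 3 of 10 were higher (Mt1, Srxn1 and Txnrd3), against 18.8%. From 20 to 100 CPM, 3 of 20 were higher (Glrx, Mgst1 and Prdx4), against 4.71%. At 100 CPM or more, where the main scavenging enzymes lie, 0 of 16 were higher, against 2.17%. The median log2 ratios of the 4 bins were 0.48, 0.10, 0.10 and 0.04 for these genes and 0.46, 0.18, -0.02 and -0.09 for all genes.

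**Figure D1:**
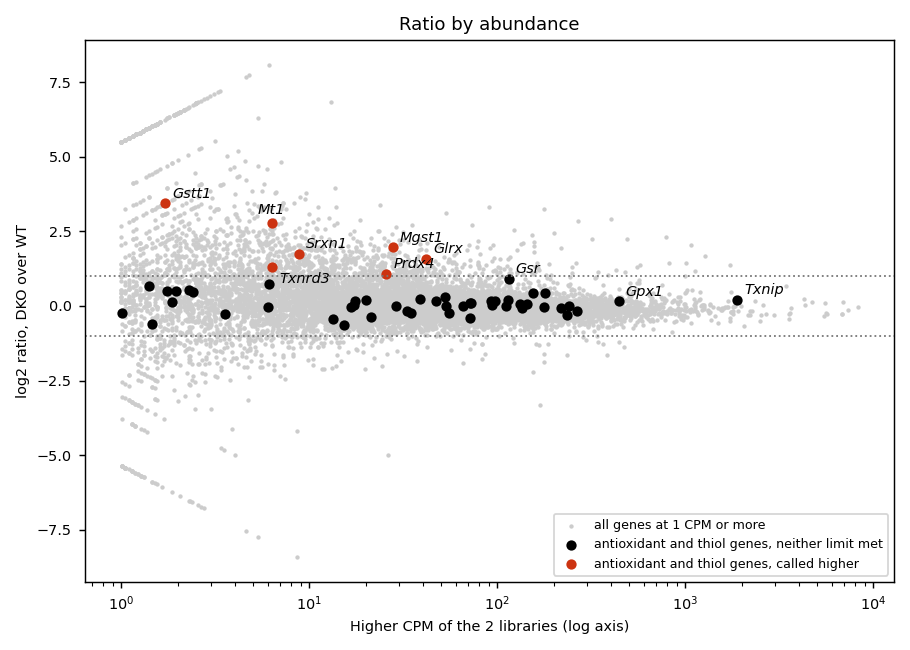
Log2 ratio of DKO over WT (vertical axis) against the higher CPM of the 2 libraries (horizontal log axis) for all 11735 compared genes (grey), with the 49 antioxidant and thiol genes that met neither limit in black and the 7 called higher in red. Dotted lines mark 2-fold, and the straight grey streaks at the left are genes with 0 or few counts in 1 library. The red points lie below 50 CPM, and Txnip and Gpx1, at the right, lie near 0.

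Superoxide dismutases and catalase were close to equal in the libraries. Sod1, the cytosolic copper and zinc enzyme, had 98.7 CPM in WT and 114 CPM in DKO and was 1.15-fold higher (interval 1.09 to 1.23). Sod2, the mitochondrial manganese enzyme, had 65.4 and 65.6 CPM (ratio 1.00, 0.931 to 1.08). Cat, peroxisomal catalase, had 126 and 131 CPM (ratio 1.04, 0.987 to 1.10). None of the 3 came near 2-fold. Ccs, the copper chaperone that loads SOD1, was 1.85-fold higher (1.67 to 2.06), from 27.2 to 50.5 CPM. It lay close to the limit of 2-fold without meeting it.

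Glutathione peroxidases were carried by Gpx1, the cytosolic selenoenzyme. Gpx1 had 8673 counts (395 CPM) in WT and 8821 counts (441 CPM) in DKO and was 1.12-fold higher (1.08 to 1.15). Gpx4, which reduces lipid peroxides in membranes and protects T cells from ferroptosis, stood at 21.2 and 16.2 CPM and lay 1.31-fold lower (1.13 to 1.51). Per kilobase of merged exons, Gpx1 was at 369 CPM and Gpx4 at 16.6 CPM in WT. The level of Gpx4 is uncertain because 61.7% of the 50-base stretches of its longest transcript also occur in transcripts of other genes, chiefly the pseudogene Gpx4-ps2, and Gpx1 shares none. Of the 56 compared genes, 13 share over 10% of these stretches with another gene, among them Sod1 (23.1%) and Prdx5 (29.7%). Of the 7 called higher, Glrx shares 0.232% and the other 6 share none. Non-unique alignments and ambiguous reads stand in rows of their own in the deposited counts, so reads from such stretches may be missing in both libraries. The share of stretches does not tell a copy elsewhere from another gene overlapping at the same place. Gpx3, Gpx7 and Gpx8 lay between 0.850 and 2.30 CPM, with intervals that included 1, and Gpx2, Gpx2-ps1, Gpx5 and Gpx6 had no count. These last are known from gut, epididymis and olfactory tissue, or are a pseudogene.

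Peroxiredoxins, peroxidases that mostly depend on thioredoxin, were close to level apart from Prdx4 and, less so, Prdx5. Per kilobase, Prdx1, Prdx3 and Prdx5 were the highest in WT, at 94.0, 91.5 and 90.4 CPM. Prdx1, the main cytosolic form, had 239 CPM in both libraries (ratio 1.00, 0.961 to 1.04). Prdx2 (111 and 110 CPM), Prdx6 (177 and 172 CPM) and mitochondrial Prdx3 (135 and 127 CPM) had log2 ratios between -0.09 and -0.02. Under scaling by total counts the signs of Prdx1, Prdx2 and Prdx6 changed, and with T cell receptor genes as the scale that of Prdx3 did too. Prdx5, found in mitochondria, peroxisomes and cytosol, stood at 131 and 178 CPM and lay 1.36-fold higher (1.30 to 1.43). Prdx4, the form of the endoplasmic reticulum, was the 1 peroxiredoxin past 2-fold. It had 266 counts (12.1 CPM) in WT and 514 counts (25.7 CPM) in DKO and was 2.12-fold higher (1.82 to 2.47), an interval that overlaps none of the intervals of the other 5 coding peroxiredoxins. Prdx6-ps1, a copy of Prdx6 that shares 0.247% of its 50-base stretches with another gene, was 1.65-fold higher (1.24 to 2.22), from 3.69 to 6.10 CPM.

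Srxn1, or sulfiredoxin, repairs peroxiredoxins that peroxide has over-oxidised and is a known NRF2 target. It had 57 counts (2.60 CPM) in WT and 175 counts (8.75 CPM) in DKO and was 3.35-fold higher (2.48 to 4.63). The typical substrates of this enzyme, Prdx1 to Prdx4, were near equal except for Prdx4. Promoters of 4 genes are shown because 2 of them belong to genes that were higher (Srxn1 and Mgst1) and 2 to genes that were not (Gclm and Prdx1), while all 4 carry a form of the antioxidant response element, the sequence NRF2 binds with small MAF proteins. Sequences are from RefSeq (build GRCm38.p6), matched by symbol (1 of the 2 listed promoters for Mgst1), and give the 250 bases before the start site from 5′ to 3′, and capitals mark TGACNNNGC or the variant TGAGNNNGC on either strand.
Srxn1, chr2:152105274-152105523, plus strand: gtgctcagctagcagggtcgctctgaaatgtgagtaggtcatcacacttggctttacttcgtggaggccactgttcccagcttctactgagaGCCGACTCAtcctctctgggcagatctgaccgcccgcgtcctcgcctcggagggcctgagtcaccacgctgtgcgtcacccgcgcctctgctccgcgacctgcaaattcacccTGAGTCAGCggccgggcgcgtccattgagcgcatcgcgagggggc
Mgst1, chr6:138140277-138140526, plus strand: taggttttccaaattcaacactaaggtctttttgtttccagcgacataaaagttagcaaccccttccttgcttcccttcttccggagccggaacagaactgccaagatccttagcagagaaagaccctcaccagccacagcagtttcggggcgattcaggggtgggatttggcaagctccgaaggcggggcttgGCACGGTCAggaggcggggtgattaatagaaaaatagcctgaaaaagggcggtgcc
Gclm, chr3:122245307-122245556, plus strand: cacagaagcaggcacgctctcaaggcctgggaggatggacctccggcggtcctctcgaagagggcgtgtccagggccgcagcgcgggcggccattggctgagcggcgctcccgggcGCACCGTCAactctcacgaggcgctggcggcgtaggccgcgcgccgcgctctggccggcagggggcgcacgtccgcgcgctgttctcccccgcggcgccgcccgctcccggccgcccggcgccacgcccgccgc
Prdx1, chr4:116685349-116685598, plus strand: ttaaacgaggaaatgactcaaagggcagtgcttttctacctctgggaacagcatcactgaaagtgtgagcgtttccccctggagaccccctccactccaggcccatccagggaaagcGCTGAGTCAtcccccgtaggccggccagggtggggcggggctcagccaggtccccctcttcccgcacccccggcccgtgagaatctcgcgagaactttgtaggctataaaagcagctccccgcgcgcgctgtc
In Srxn1 the 2 matches shown begin 158 and 45 bases before the start and are of the variant form, and another, of the form TGACNNNGC, lies after the start. The single matches of Mgst1 and Gclm begin 56 and 134 bases before it, and that of Prdx1 shown here begins 133 bases before it.

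Such matches were not rare among these genes or among others. In the full window of 300 bases, which runs to 50 bases after the start, TGACNNNGC was found for 11 of the 48 compared genes with a promoter in the table (22.9%) and for 17.3% of the 8415 compared genes of the whole series with one. Among all 27025 genes of the table the share was 14.0%. Of the 7 higher genes, 2 held it (Mgst1 and Srxn1). With the variant TGAGNNNGC added after the sequences were seen, the shares were 33.3% of the 48 and 36.0% of the 8415, and 4 of the 7 higher genes held a match. Matches are letters in a window and do not show binding.

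The thioredoxin system held the most abundant gene of all 75. Txnip, which encodes an inhibitor of thioredoxin that also limits glucose uptake, had 1632 CPM in WT and 1876 CPM in DKO (1.15-fold higher, 1.13 to 1.17) and made up 31.1% and 32.9% of the summed CPM. Of the 50-base stretches of Txnip, 18.4% are shared with another gene (Gm15441), so its level is less certain. Txn1, cytosolic thioredoxin, stood at 113 and 154 CPM and lay 1.36-fold higher (1.29 to 1.44). Txn2, its mitochondrial counterpart, had 218 and 207 CPM and a ratio of 0.949 (0.910 to 0.989), which turned above 1 on the T cell receptor gene scale. The reductases differed among themselves. Txnrd1, the cytosolic one, had 137 and 144 CPM (ratio 1.05, 0.996 to 1.10), and mitochondrial Txnrd2 had 15.8 and 17.6 CPM (ratio 1.11, 0.954 to 1.29). Txnrd3, a reductase fused to a glutaredoxin domain and best known from testis, had 56 and 127 counts (2.55 and 6.35 CPM), making it 2.48-fold higher (1.80 to 3.47). Even in DKO its level per kilobase, 2.24 CPM, lay under the 35.2 CPM of Txnrd1.

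Other proteins with a thioredoxin fold lay within 2-fold throughout. All 10 compared genes of this group met neither limit, with log2 ratios from -0.64 to 0.29 and a median of -0.07 that turned positive on the T cell receptor gene scale. Txndc5, a disulfide isomerase of the endoplasmic reticulum abundant in secretory cells, had 265 and 237 CPM. Txnl4b, a splicing protein, differed most, with 336 and 196 counts (15.3 and 9.80 CPM), and lay 1.56-fold lower (1.31 to 1.87). Its paralog Txnl4a, of the spliceosomal U5 particle, stood at 235 and 190 CPM and lay 1.24-fold lower (1.18 to 1.29). Both splicing members were thus lower, while Txndc12, a small oxidoreductase of the endoplasmic reticulum, was 1.22-fold higher (1.12 to 1.33). Txndc2, Txndc3, Txndc6 and Txndc8, known from testis and ciliated cells, had no count in either library.

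Among glutaredoxins, which use glutathione to reduce protein disulfides or to pass on iron-sulfur clusters, Glrx went apart from the other 3. Glrx, the cytosolic enzyme that removes glutathione from proteins, had 304 counts (13.9 CPM) in WT and 831 counts (41.6 CPM) in DKO and was 3.00-fold higher (2.63 to 3.43). Glrx2, mitochondrial, had 17.6 and 20.1 CPM (ratio 1.15, 0.994 to 1.32). Glrx3 and Glrx5, which handle iron-sulfur clusters, were 1.35-fold lower (1.13 to 1.63) and 1.31-fold lower (1.21 to 1.42), at 13.4 and 9.85 CPM and at 71.9 and 54.8 CPM.

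Glutathione is made by glutamate-cysteine ligase (catalytic subunit Gclc, modifier subunit Gclm) and glutathione synthetase (Gss), and the intervals of all 3 included a ratio of 1. Gclc had 53.4 and 53.5 CPM (ratio 1.00, 0.920 to 1.09). Gclm had 16.5 and 16.3 CPM (ratio 0.985, 0.846 to 1.15), and Gss had 16.7 and 17.3 CPM (ratio 1.03, 0.888 to 1.20). For these 3 genes the intervals lie within 1.20-fold in either direction, for counting error alone and at the scale used here. On the T cell receptor gene scale the log2 ratios were 0.20 for Gclc, which left its interval, 0.18 for Gclm and 0.24 for Gss. Gsr, which reduces oxidised glutathione with NADPH, had 1332 counts (60.7 CPM) in WT and 2291 counts (115 CPM) in DKO. It was 1.89-fold higher (1.76 to 2.02), just under the limit, and passed it on the T cell receptor gene scale. It was the largest difference among the 16 genes at 100 CPM or more.

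Cytosolic glutathione transferases, which join glutathione to electrophiles, were led per kilobase by Gsto1 (57.5 CPM in WT), Gstp1 (42.3 CPM) and Gstt2 (12.7 CPM). Gsto1 had 67.9 and 72.4 CPM, Gstp1 34.7 and 29.6 CPM, and Gstt2 28.9 and 28.8 CPM, at ratios of 1.07, 0.852 and 0.995. Gstp1 is uncertain in level, with 62.3% of its 50-base stretches shared, chiefly with Gstp2. Gstt1 had 3 counts in WT and 34 in DKO, at 0.137 and 1.70 CPM, a ratio of 10.8 with an interval from 3.91 to 63.3. With a prior count of 5 in place of 0.5 its log2 ratio was 2.42 rather than 3.43, so its size is poorly fixed by these counts. Gsta4, Gstm1, Gstm5 and Gstt3 had between 19 and 48 counts and ratios between 1.38 and 1.60, with intervals that included 1. Gsta3 had 7 counts in WT and 0 in DKO, which is at least 2.13-fold lower against a floor of 3 counts. The remaining alpha, mu, omega, pi and theta class genes were at 0 in both libraries, apart from Gstm4 at 6.02 and 5.85 CPM and Gstm7 with 0 and 4 counts.

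Microsomal transferases, membrane proteins of the endoplasmic reticulum and outer mitochondrial membrane, also had 1 gene apart. Mgst1, which detoxifies electrophiles and lipid peroxides and is abundant in liver and myeloid cells, had 155 counts (7.07 CPM) in WT and 554 counts (27.7 CPM) in DKO and was 3.91-fold higher (3.28 to 4.72). Mgst2, which can make leukotriene C4, had 33.3 and 38.7 CPM (1.16-fold higher, 1.05 to 1.29), and Mgst3 had 3.56 and 2.95 CPM (ratio 0.832, 0.582 to 1.18). The interval of Mgst1 overlaps neither of these.

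Metallothioneins, small cysteine-rich proteins that bind zinc and copper, were low and differed from each other. Mt1 had 20 counts (0.912 CPM) in WT and 127 counts (6.35 CPM) in DKO and was 6.82-fold higher (4.33 to 11.8). Mt2 had 37 counts in each library, at 1.69 and 1.85 CPM, a ratio of 1.10 (0.677 to 1.78). The intervals do not overlap, although both genes are known to be induced by metals and glucocorticoids. Of the 50-base stretches of Mt2, 45.5% are shared with another gene (Gm45774) and none of Mt1, so the level of Mt2 is uncertain. The promoters of both are shown for this contrast, with the core of the metal response element (TGCACNC or TGCGCNC on either strand) in capitals.
Mt1, chr8:94178839-94179088, plus strand: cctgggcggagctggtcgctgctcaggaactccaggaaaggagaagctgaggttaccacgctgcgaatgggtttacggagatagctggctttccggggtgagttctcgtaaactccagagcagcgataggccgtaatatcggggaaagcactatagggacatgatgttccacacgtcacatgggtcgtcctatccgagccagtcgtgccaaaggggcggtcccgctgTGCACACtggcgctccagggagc
Mt2, chr8:94172368-94172617, plus strand: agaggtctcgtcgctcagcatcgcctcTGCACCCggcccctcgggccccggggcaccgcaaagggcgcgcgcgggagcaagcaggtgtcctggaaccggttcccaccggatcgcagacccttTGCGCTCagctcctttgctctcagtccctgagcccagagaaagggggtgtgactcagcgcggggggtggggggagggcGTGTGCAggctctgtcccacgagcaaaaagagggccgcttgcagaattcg
Mt1 held 3 matches in the window of 300 bases, 1 of them before its listed start and 2 after it. Mt2 held 4, of which 3 lie before its listed start. The split depends on the start site listed for each gene, which was not checked here. At least 3 matches were found for 6.25% of the 48 compared genes with a promoter and for 3.98% of the 8415. At least 1 match was found for 37.5% of the 48, for 40.3% of the 8415 and for 6 of the 7 higher genes. Mtf1, the zinc-sensing factor that binds this element, had 48.4 and 44.3 CPM, and the zinc exporter gene Slc30a1, a known target of it, had 29.6 and 38.2 CPM (1.29-fold higher, 1.16 to 1.43).

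The regulators themselves were nearly level. Nfe2l2 had 87.1 CPM in WT and 97.4 CPM in DKO and was 1.12-fold higher (1.05 to 1.19). Keap1 had 135 and 136 CPM (ratio 1.01, 0.957 to 1.06). Nqo1, a quinone reductase widely used as a readout of NRF2, was nearly absent, with 14 counts in WT and 1 in DKO, an 8.81-fold lower value by the ratio used here with an interval from 1.94 to 540. It lay below 1 CPM in both libraries and was not compared.

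**Figure D2:**
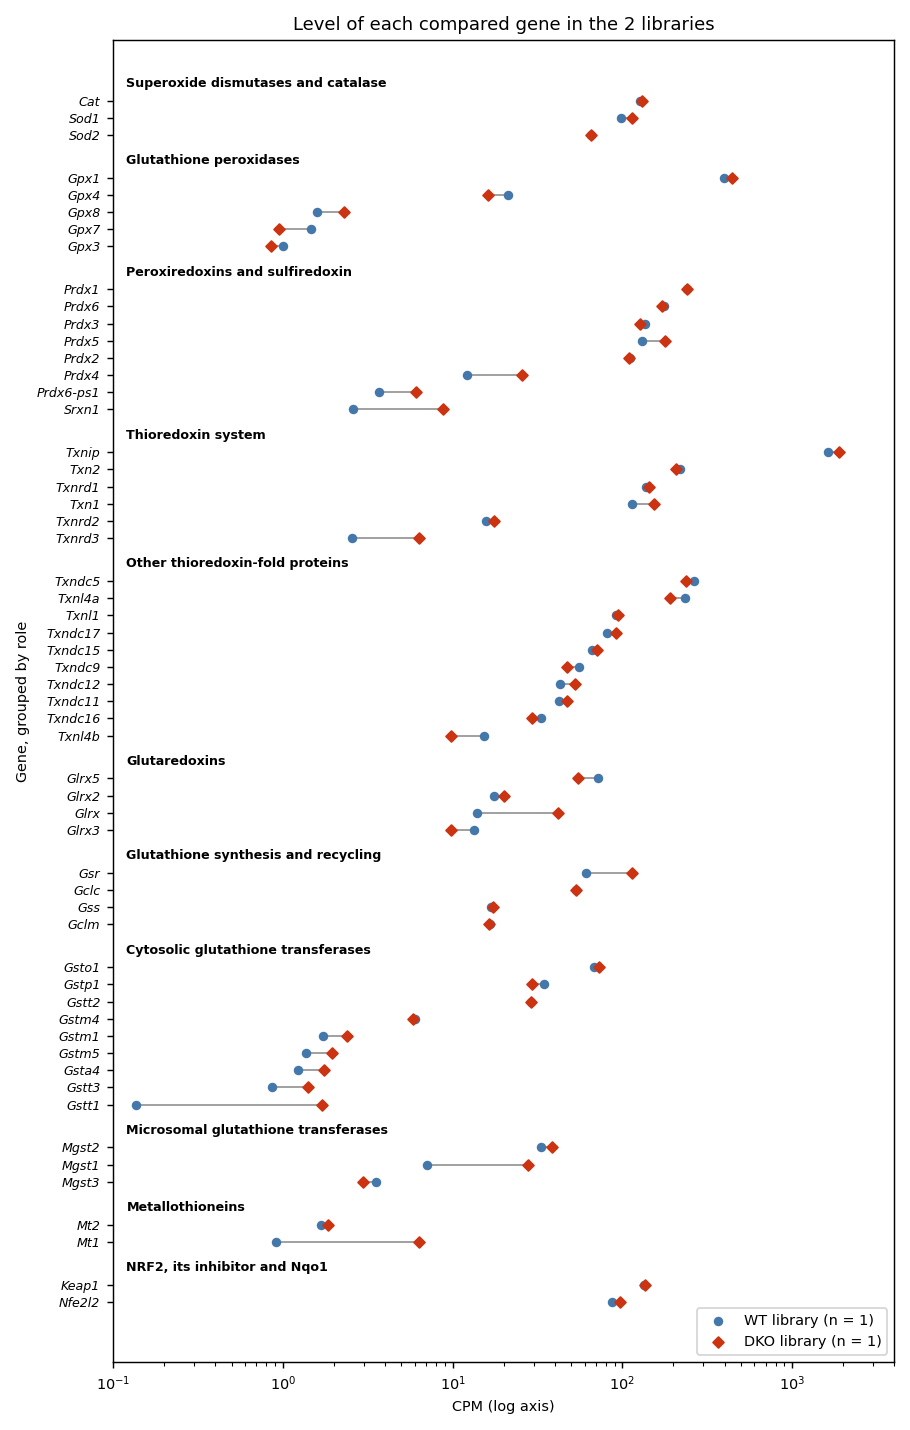
CPM (log axis) of the 56 compared genes, grouped by role and ordered within a role by the WT level, with the WT library as blue circles and the DKO library as red diamonds (1 library each, so no error bar). Long connecting lines mark the genes that differed most, such as Mgst1 from 7.07 to 27.7 CPM and Glrx from 13.9 to 41.6 CPM, while Sod2, Gclc, Prdx1 and Keap1 show overlapping symbols.

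**Figure D3:**
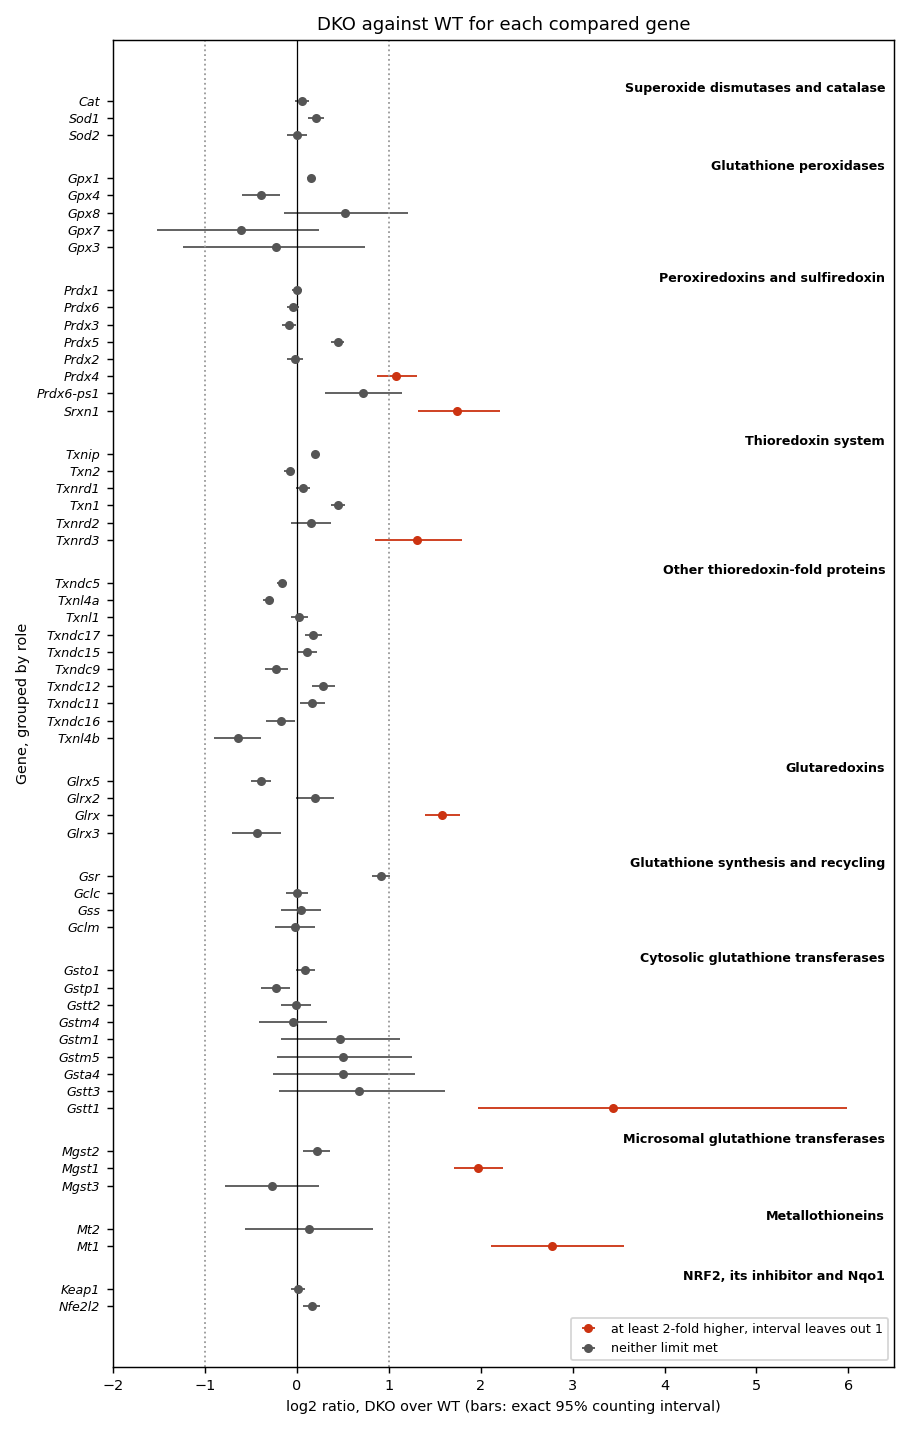
Log2 ratio of DKO over WT for the same 56 genes with exact 95% counting intervals as bars and dotted lines at 2-fold in either direction. The 7 genes in red are called higher, no point lies left of the lower line, and intervals widen for genes with few counts such as Gstt1 (3 and 34 counts).

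Genes that feed and surround this system were taken from 8 further lists. Beside the counts of all 8 lists, 11.6% of all compared genes were called higher and 3.60% lower. Of the 25 compared NRF2 partners and targets, 4 were called higher and 0 lower, and the list median was 0.22 (log2). Slc7a11, the cystine transporter that supplies cysteine for glutathione, had 0 and 26 counts and was at least 9.51-fold higher against the floor. Maff, a small MAF partner of NRF2, was 7.11-fold higher (3.90 to 15.4) from 11 to 74 counts. Cbr3 and Osgin1 were 4.63-fold (2.45 to 10.2) and 3.24-fold (2.40 to 4.46) higher, each below 10 CPM. Slc7a11, Maff and Cbr3 lay in the bin of 1 to 5 CPM, where 35.0% of all genes were higher. Osgin1 lay in that of 5 to 20 CPM, where 18.8% were. The abundant members were nearer to level. Ferritin heavy chain, Fth1, had 711 and 741 CPM, and the aldehyde reductase gene Akr1a4 had 414 and 516 CPM.

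Among genes of NADPH supply, 1 of 14 was higher and 0 lower, and the list median was 0.10. The higher one, Idh1, the cytosolic isocitrate dehydrogenase, stood at 12.7 and 30.9 CPM and lay 2.43-fold higher (2.11 to 2.81). Tkt, the transketolase of the pentose phosphate pathway, had 543 and 559 CPM. Genes of glutathione turnover and transport had 3 of 22 higher and 2 lower, and a list median of -0.12 that turned positive on the T cell receptor gene scale. Anpep, an aminopeptidase that trims glutathione breakdown products and marks myeloid cells, was 2.38-fold higher (1.99 to 2.86). Chac2, which degrades glutathione, was 2.14-fold higher (1.54 to 3.05) from 54 to 106 counts. Ggt7, of the gamma-glutamyl transferase family, went the other way with 85 and 4 counts and was 17.3-fold lower (7.29 to 72.7). The neutral amino acid transporter gene Slc1a4, with 25 and 10 counts, was 2.21-fold lower (1.06 to 5.32).

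Selenoprotein genes outside the glutathione peroxidases and thioredoxin reductases had 1 of 16 higher (Selm, from 15 to 44 counts) and 0 lower, and the list median was 0.05. Repair genes had 1 of 17 higher and 0 lower, and the list median was 0.23. The higher one, Aifm2, whose product FSP1 protects membranes from ferroptosis alongside GPX4, was 5.01-fold higher (3.57 to 7.36) from 39 to 180 counts. Sepx1, a methionine sulfoxide reductase counted in both of these lists, stood at 59.9 and 112 CPM and lay 1.86-fold higher (1.74 to 2.00). Genes of disulfide formation in the endoplasmic reticulum, where PRDX4 works, had 0 of 20 higher and 1 lower (Pdia5, from 61 to 25 counts), and the list median was 0.05. Genes of metal supply had 1 of 17 higher (the iron exporter gene Slc40a1, 2.20-fold, 2.07 to 2.33), with 0 lower, and the list median was 0.03.

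Superoxide is made on purpose by the phagocyte NADPH oxidase, and 3 of its 7 compared genes were higher, with 0 lower, and the list median was 0.26. Cybb, the catalytic subunit, had 56.7 CPM in WT and 217 CPM in DKO and was 3.83-fold higher (3.60 to 4.09). Its cytosolic partner Ncf1 was 2.55-fold higher (2.37 to 2.76). Both subunits are best known from neutrophils and macrophages. Rac2, which T cells also use, had 1973 and 1979 CPM.

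Summed levels of the markers of other cell types were higher in DKO, the library in which the 7 genes were higher. Beside the counts of called markers and cell cycle genes below, 11.6% of all compared genes were called higher and 3.60% lower. Neutrophil markers had 8 of 13 at least 2-fold higher and a summed level of 706 CPM for WT and 2999 CPM for DKO, with none of the 13 at 0 in either. Macrophage and monocyte markers had 5 of 15 higher and sums of 1544 and 2895 CPM, with none at 0. Dendritic cell markers had 9 of 12 higher and sums of 1527 and 4231 CPM, with none at 0. NK cell markers, which include Eomes itself and genes that effector CD8+ T cells express, had 8 of 13 higher, 1 lower and sums of 1509 and 2400 CPM, with none at 0. CD4 and FOXP3 T cell markers had 7 of 9 higher and sums of 134 and 308 CPM, with none at 0.

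B cell markers had 2 of 8 compared genes higher, 1 lower and sums of 58.1 and 81.3 CPM, with Ebf1 at 0 in the DKO library. Plasma cell markers had 2 of 7 higher, 1 lower and sums of 308 and 553 CPM, with none at 0. Erythroid markers had 6 of 9 higher and sums of 61.5 and 98.6 CPM, with the 4 listed globin genes at 0 in both libraries. Platelet markers had 6 of 9 higher and sums of 42.2 and 80.6 CPM, with Gp5 and Gp6 at 0 in the WT library. CD8 T cell markers had 0 of 5 past 2-fold and sums of 4475 and 4210 CPM. Cell cycle genes had 19 of 30 higher, 0 lower and a median of 1.40. The part of these cells, or of cycling cells, in the levels of Mgst1, Glrx, Prdx4, Srxn1, Mt1, Txnrd3, Gstt1 and Gsr was not tested.

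**Figure D4:**
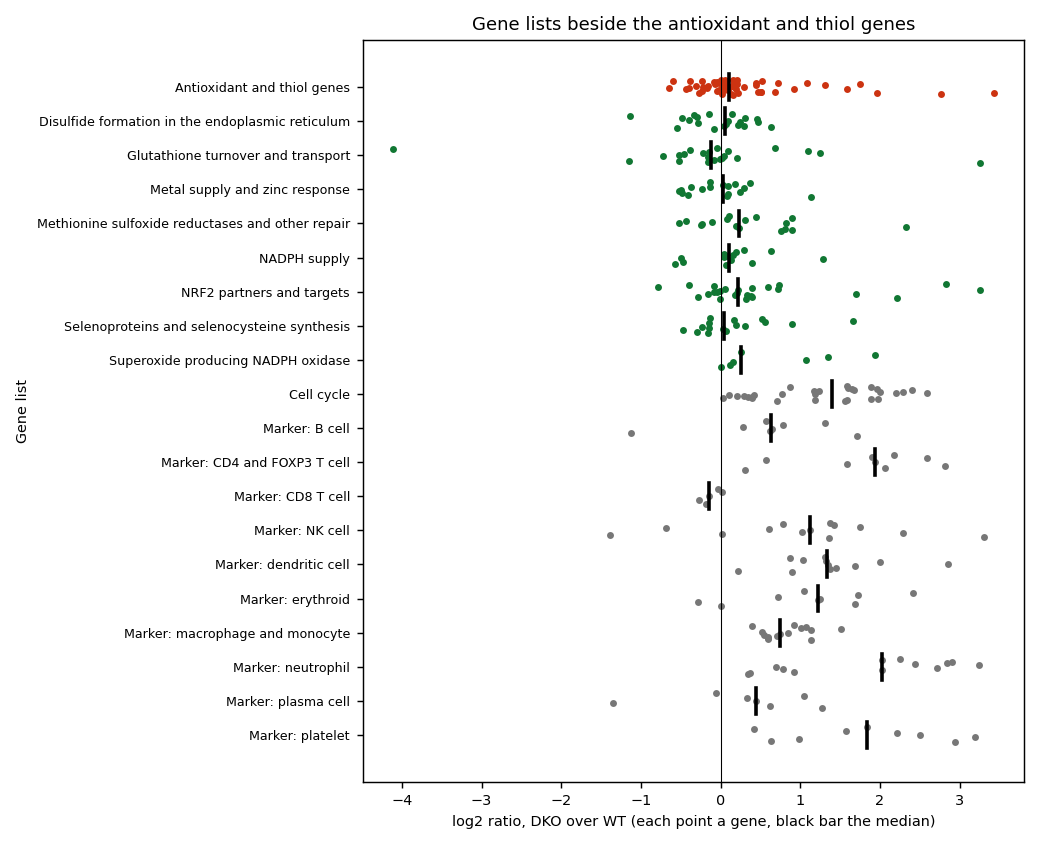
Log2 ratio of DKO over WT for each compared gene (points) of the antioxidant and thiol genes (red), the 8 surrounding pathway lists (green), and the cell cycle and marker lists (grey), with the median of each list as a black bar. A gene at 0 in 1 library is drawn at its fold against a floor of 3 counts. The red median is 0.10, the pathway medians lie between -0.12 and 0.26, and the medians of the neutrophil and CD4 and FOXP3 T cell markers are 2.03 and 1.94.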

How the data were processed

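The authors deposited whole-number read counts per gene for each of the 2 libraries, not normalised. Libraries were Illumina TruSeq total RNA, read single-end over 50 bases, per the labels' protocols. Software in the submitters' processing notes was HTSeq, TopHat2 2.0.8b and bcl2fastq, with the build mm9 and no roles stated. The annotation and strand setting of the counting step are not given in the labels, so a gene and an overlapping antisense partner cannot be separated. The 5 rows that name no gene were left out; non-unique alignments held 66.4% (WT) and 64.8% (DKO) of all row totals, reads outside genes 4.89% and 4.45%, and ambiguous reads 0.209% and 0.212%.

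Counts were scaled by TMM factors (edgeR 4.0.16, R 4.3.3; 0.983 for WT, 1.02 for DKO). A prior count of 0.5 entered each log2 ratio, and folds are its antilog. Intervals are exact 95% Clopper-Pearson intervals of the DKO share of a gene's 2 counts, expressed as a ratio (scipy 1.17.1). Because no molecular identifiers were used, reads are not independent molecules, and both intervals and floors hold counting error only. A floor of 3 counts was 0.137 CPM in WT and 0.150 CPM in DKO. The comparison took genes reaching 1 CPM in WT or DKO, and called those at 2-fold or more with an interval that left out 1. No model of variation between animals could be fitted with 1 library per genotype. The ratio, interval and call steps alone were tested on simulated data, which held counting error and no variation between animals.

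Every compared gene could be named. Of other lists, the called genes (up to 4) and up to 2 of the most abundant were to be named. Ccs, Slc30a1, Mtf1 and Sepx1 were chosen outside this rule after their values were seen. Some genes of the other lists are not reported here by name. Genes and lists were chosen with earlier results of these data known. Merged exon lengths and shared 50-base stretches came from the basic set of GENCODE vM21 (GRCm38), not mm9, and all 75 genes matched; promoters came from RefSeq, with 64 of 75 matched. Alternatives were scaling by total counts, DESeq2 1.42.0 size factors or T cell receptor genes, other CPM minimums, other fold limits and a prior count of 5.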

Additional observations from a re-analysis of the deposited data

How the results depend on the processing

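The same 7 genes were called higher under scaling by total counts, by DESeq2 size factors, without a CPM filter and with a prior count of 5. They were also called among genes with at most 10% of their 50-base stretches shared with another gene, a set chosen after seeing the data. In this order their shares were 12.7%, 12.5%, 11.9%, 12.5% and 16.3%. Those of all genes, not limited by shared stretches, were 12.2%, 11.5%, 14.5%, 11.0% and 11.6%. With T cell receptor genes as the scale, which moved the median of all genes to 0.20, 8 of 56 were higher (14.3%, Gsr added), against 14.6% of all genes, and the median of the antioxidant and thiol genes was 0.30. The sign of 10 ratios changed there, the largest of them 0.17 in absolute log2 ratio. Of the 56 ratios, 32 left their counting interval under that scale and 2 under total counts. With a minimum of 5 CPM, 6 of 46 were higher (13.0%), without Gstt1, against 7.42% of 9953 genes. Of the 6, Mt1, Srxn1 and Txnrd3 reached 5 CPM in the DKO library alone, where they were high. A limit of 1.5-fold gave 9 higher (16.1%, against 17.7% of all genes) and 1 lower (Txnl4b). A limit of 4-fold gave 2 higher, Gstt1 and Mt1 (3.57%, against 4.39% of all genes). Both reached 1 CPM in the DKO library alone. Without a CPM filter, 2 were lower, Nqo1 and Gsta3. Over all genes, the counts of higher and lower were 739 and 146 with at least 5 CPM, 2073 and 987 at 1.5-fold, 515 and 138 at 4-fold, and 692 lower without a filter. The changes under another minimum or limit follow from the genes each setting admits. No paired analysis was possible because each genotype had 1 library. For the 9 compared genes with under 50 counts in both libraries, the upper bound of the interval was more than 2 times the lower bound.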
